A study of Mus musculus with 6 samples.

Results

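The genes described here are the class II olfactory receptor (OR) genes of mouse chromosome 7 numbered *Olfr470* to *Olfr541* or *Olfr693* to *Olfr716*. Genes were taken by number range alone, but the range was set with earlier results of these data known. It holds 76 of the 1116 plainly numbered *Olfr* genes in the files, 56 in the lower range and 20 in the upper. OR genes encode the odorant receptors of olfactory sensory neurons (OSNs), and a mature OSN transcribes a single OR gene out of the whole family. Class I ORs are the fish-like family and sit in a cluster of their own, whereas class II ORs are spread over many clusters and are each used in a restricted dorsal-to-ventral zone of the main olfactory epithelium. Dorsal OSNs are known to express *Nqo1*, which encodes a quinone oxidoreductase, and *Acsm4*, while more ventral OSNs express the axon guidance receptor *Nrp2*, the adhesion molecule *Ncam2* and nuclear factor I genes. Among the 76 genes, *Olfr503* and *Olfr504* carry MOR family numbers of class I (MOR34 and MOR40), and no cell chose them.

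Single-cell RNA-seq of papain-dissociated main olfactory epithelium was available for 6 libraries. The 2 swap libraries are labelled CbxSwap with a Cre allele, and in these mice *Cbx5*, which encodes HP1α, is expressed from the *Cbx1* locus in place of *Cbx1*, which encodes HP1β, in cells where a neuronal-lineage Cre has acted. The 2 control libraries differ in their labels, since control replicate 1 is wild type at *Cbx* and carries Cre, and control replicate 2 carries both swap alleles without Cre. The remaining libraries are 1 gg8-tTA mouse and 1 gg8-tTA; tetOP2iresGFP mouse (tetOP2), in which tTA from the gg8 promoter drives a P2 (*Olfr17*) transgene. The age of the mice and the number pooled per library were not given in the sources used here. P-values of swap against control thus measure the spread between libraries. Where cells of the same library were compared, p-values measure how that within-library difference varied from library to library.

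Mature OSNs were cells with at least 10 *Omp* UMIs (unique molecular identifiers, counts of captured mRNA molecules) and more *Omp* than *Gap43* UMIs. *Omp* marks mature and *Gap43* immature OSNs. The chosen OR of a cell was the OR with the most UMIs, of which at least 3 were required. The libraries held 32005196 to 63277934 UMIs, with a median of 9991 to 11543 per kept cell, and 598 to 1185 mature OSNs per library chose an OR. Libraries shared at most 20 cell barcodes. Of the barcodes of control replicate 2, 57.5% passed the minimum of 1000 UMIs and 500 genes, against 84.4% to 100% elsewhere. In cells choosing one of the 76 ORs, *Cbx1* stood at 80.5 and 147 CPM (UMIs of the gene scaled to a common total of UMIs, so that libraries can be compared) in the control libraries and at 6.30 and 4.18 CPM in the swap libraries, and *Cbx5* at 32.4 and 43.7 against 75.6 and 86.4 CPM. Both genes followed the labels. The 8 mature OSN markers were all detected in these cells in every swap and control library. Summed markers of sustentacular cells, the supporting cells of the epithelium, reached 34.8 to 2564 CPM in control and 970 to 1061 CPM in swap libraries, and neutrophil markers reached 8032 CPM in 1 swap library. Because some cells thus carried mRNA of another cell type, each test was repeated without cells that had at least 10 UMIs of another type's markers, a choice made after seeing the data. Those were 0 and 7 of the 66 and 79 control cells, and 3 and 2 of the 51 and 54 swap cells, that chose one of the 76 ORs.

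The 76 genes fall into 4 blocks on chromosome 7 of GRCm38, cut where neighbours lie more than 500 kb apart. *Olfr520* and *Olfr521* (family MOR101) lie at chr7:99730273-99769321. The *Olfr693*–*Olfr716* block holds 20 genes at chr7:106675005-107150581, the *Olfr470*–*Olfr519* block holds 40 genes at chr7:107842905-108894420, and the *Olfr522*–*Olfr541* block holds 14 genes at chr7:140159999-140705606. The upper number range is thus the block of 20 genes, and the lower range is split over the other 3. *Olfr17*, the receptor of the P2 transgene, lies inside the *Olfr693*–*Olfr716* block at chr7:107093220-107099808 but is outside the number range.

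RefSeq windows of GRCm38.p6 that end at a gene's start were found for 70 of the 76 genes, but for 58 of them the annotated start is the start codon itself, so that the window lies upstream of the coding sequence and its distance from the transcription start is not known. The windows of *Olfr711* and *Olfr536* are shown because both genes had lower shares of cells in both swap libraries than in both controls, and that of *Olfr710* because it is a neighbour of *Olfr711* that did overlap between the groups. Each is printed 5′ to 3′ on the minus strand, up to the base before the annotated start, and capitals mark matches to the Ebf core CCCNNGGG or to TATAAA on either strand. *Olfr710* covers chr7:106948313-106948562, *Olfr711* chr7:106975454-106975701 and *Olfr536* chr7:140507397-140507568.
Olfr710: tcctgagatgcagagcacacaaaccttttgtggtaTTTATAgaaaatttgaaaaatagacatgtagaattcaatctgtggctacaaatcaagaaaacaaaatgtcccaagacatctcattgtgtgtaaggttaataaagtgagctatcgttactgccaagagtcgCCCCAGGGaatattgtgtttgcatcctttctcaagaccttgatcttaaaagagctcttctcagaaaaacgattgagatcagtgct
Olfr711: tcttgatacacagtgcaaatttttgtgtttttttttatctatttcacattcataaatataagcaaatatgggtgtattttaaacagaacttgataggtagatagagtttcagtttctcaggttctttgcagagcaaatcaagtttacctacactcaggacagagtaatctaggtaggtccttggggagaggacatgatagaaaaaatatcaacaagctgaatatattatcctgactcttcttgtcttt
Olfr536: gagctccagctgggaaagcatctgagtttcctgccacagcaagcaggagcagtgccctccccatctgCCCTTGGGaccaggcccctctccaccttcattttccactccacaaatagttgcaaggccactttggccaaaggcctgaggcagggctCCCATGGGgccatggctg
The Ebf core is the motif of the Ebf transcription factors of OSNs. It was 85 bases before the end of the *Olfr710* window and 105 and 18 bases before that of *Olfr536*. No searched motif was in the *Olfr711* window. RefSeq and GENCODE, the 2 annotations used, place the starts of *Olfr710*, *Olfr711* and *Olfr536* 0, 2 and 78 bases apart. Their printed windows hold 250, 248 and 172 bases, so distances to the start depend on the annotation. Over all windows, CCCNNGGG was found in 5.71% of the 70 windows, in 2.53% of 870 other OR windows and in 11.7% of 27025 windows of all genes. The homeodomain motif TAATTA was found in 12.9%, 18.6% and 4.90%, and TATAAA in 47.1%, 38.9% and 13.0%, in the same order. TAATTA and TATAAA can share bases at their ends, so a pair of matches may overlap. Since most of these windows end at the base before a start codon, these shares describe annotated windows rather than promoters.

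The first question was how often these ORs were chosen, and whether the swap changed it. They were chosen by 6.86% and 6.67% of choosing mature OSNs in the control libraries (66 of 962 and 79 of 1185 cells), and by 7.63% and 5.75% in the swap libraries (51 of 668 and 54 of 939 cells). One swap library lay above both controls and the other below both, so the groups overlapped. The exact 95% intervals, which cover counting error only, ran from 5.35 to 8.65% and 5.31 to 8.24% in the controls and from 5.74 to 9.92% and 4.35 to 7.44% in the swap libraries. With swap replicate 1 left out the swap libraries were 1.01 percentage points below the controls, and with swap replicate 2 left out they were 0.871 points above. In immature OSNs, with at least 10 *Gap43* UMIs and more *Gap43* than *Omp*, the share was 6.62 and 5.50% in control and 5.77 and 6.90% in swap libraries, again overlapping.

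By block, swap and control shares separated for 2 of the 3 larger blocks, each with overlapping counting intervals. With 2 libraries per group such a separation is common. Of all 858 single ORs chosen in these libraries, 15.7% were higher and 17.9% lower in both swap libraries. The separations are thus given as a description and are no result about these blocks. The *Olfr470*–*Olfr519* block was chosen by 1.66 and 2.45% of control and 3.14 and 2.56% of swap cells, both swap libraries being higher. The *Olfr522*–*Olfr541* block was chosen by 3.64 and 2.70% of control and 2.84 and 1.70% of swap cells, which overlapped. The *Olfr693*–*Olfr716* block was chosen by 1.56 and 1.52% against 1.35 and 1.38%, both swap libraries being slightly lower. For the *Olfr470*–*Olfr519* block the intervals were 0.95 to 2.69% and 1.64 to 3.50% in control and 1.96 to 4.77% and 1.64 to 3.78% in swap libraries, and those of the *Olfr693*–*Olfr716* block overlapped as well. *Olfr521* accounted for all cells of the MOR101 pair, 2 and 1 cells in the swap libraries and 0 in both controls, where 0 of 2147 cells allows a share of up to 0.14%.

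**Figure D1:**
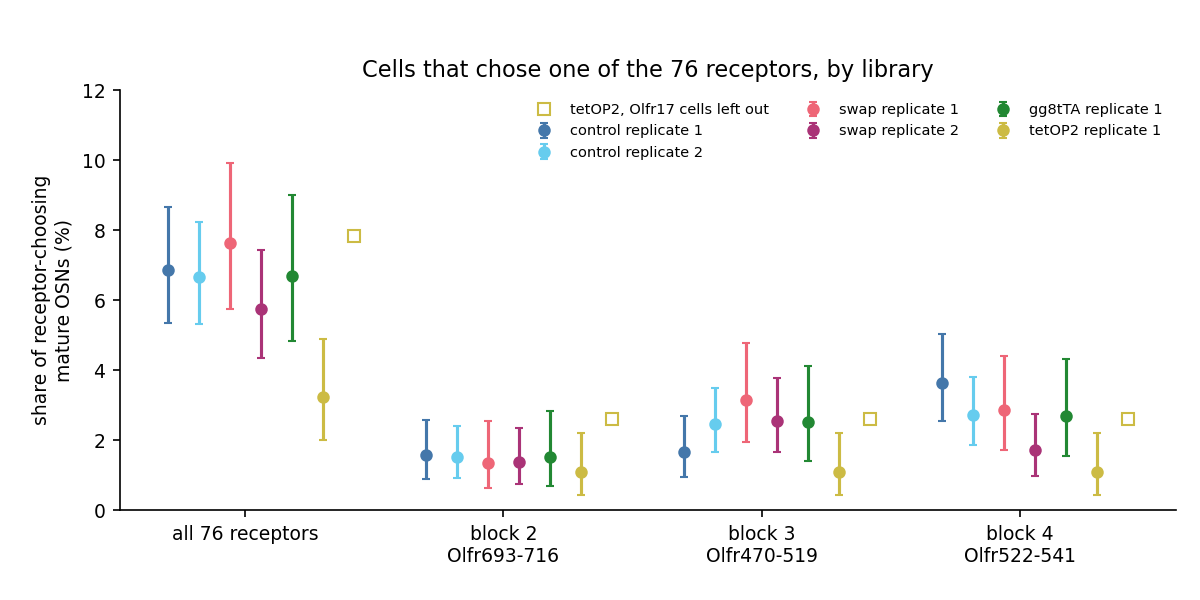
Percentage of receptor-choosing mature OSNs (vertical axis) that chose one of the 76 ORs or an OR of a block, per library, with exact 95% intervals of counting error. The swap libraries (7.63 and 5.75%) lie on both sides of the control libraries (6.86 and 6.67%), and the open square gives tetOP2 without the cells that chose *Olfr17* (7.84%).

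The minimum of 3 UMIs for a chosen OR was compared with the UMIs of these ORs in cells that had not chosen them. At least 3 UMIs of the 76 ORs were found in 0 to 0.383% of sustentacular-marked cells and in 0 to 0.181% of mature OSNs that chose another OR. At least 1 UMI was found in 1.99 to 17.2% of the sustentacular-marked cells, and in 1.78 to 21.5% of the OSNs that chose another OR. Both were highest in the gg8-tTA (17.2 and 21.5%) and tetOP2 (11.7 and 13.4%) libraries. Single UMIs of these ORs were thus common outside the cells that chose them, and 3 or more were rare.

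The 76 ORs were used very unequally. In the 4 swap and control libraries 58 of them were chosen by 250 cells, and the 10 most chosen held 43.6% of these cells. Over all 6 libraries 61 were chosen by 311 cells and 15 by none. Of these 15, 10 had no UMI in any mature OSN, namely *Olfr470*, *Olfr474*, *Olfr486*, *Olfr498*, *Olfr503*, *Olfr504*, *Olfr510*, *Olfr514*, *Olfr520* and *Olfr703*. All but 2 of the 10 (*Olfr520* and *Olfr703*) lie in the *Olfr470*–*Olfr519* block. All 14 genes of the *Olfr522*–*Olfr541* block were chosen by at least 1 cell.

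Values are given as cells in control replicates 1 and 2 and then swap replicates 1 and 2. *Olfr523*, the only gene of family MOR104 here, was chosen most often, by 6, 1, 3 and 5 cells. *Olfr488* was chosen by 3, 7, 2 and 2 cells and *Olfr481* by 1, 2, 8 and 2, both of the large MOR204 family. *Olfr531* was chosen by 6, 4, 1 and 2 cells. *Olfr523* overlapped between the groups, while *Olfr488* and *Olfr531* had lower and *Olfr481* higher shares of choosing cells in both swap libraries. *Olfr536* was chosen by 5, 6, 1 and 0 cells, *Olfr533*, of the same family MOR252, by 5, 3, 0 and 1 cells, and *Olfr541*, of MOR253, by 3, 5, 0 and 3 cells. *Olfr536* and *Olfr533* were lower in both swap libraries and *Olfr541* overlapped with the controls, its share being 0 in swap replicate 1. The next 18 by cell number, *Olfr527*, *Olfr707*, *Olfr710*, *Olfr524*, *Olfr525*, *Olfr506*, *Olfr508*, *Olfr517*, *Olfr711*, *Olfr479*, *Olfr487*, *Olfr522*, *Olfr693*, *Olfr699*, *Olfr713*, *Olfr715*, *Olfr482* and *Olfr509*, were chosen by 8 to 4 cells each, and *Olfr513*, *Olfr535* and *Olfr539*, also with 4 cells, were tied with the last of these.

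**Figure D2:**
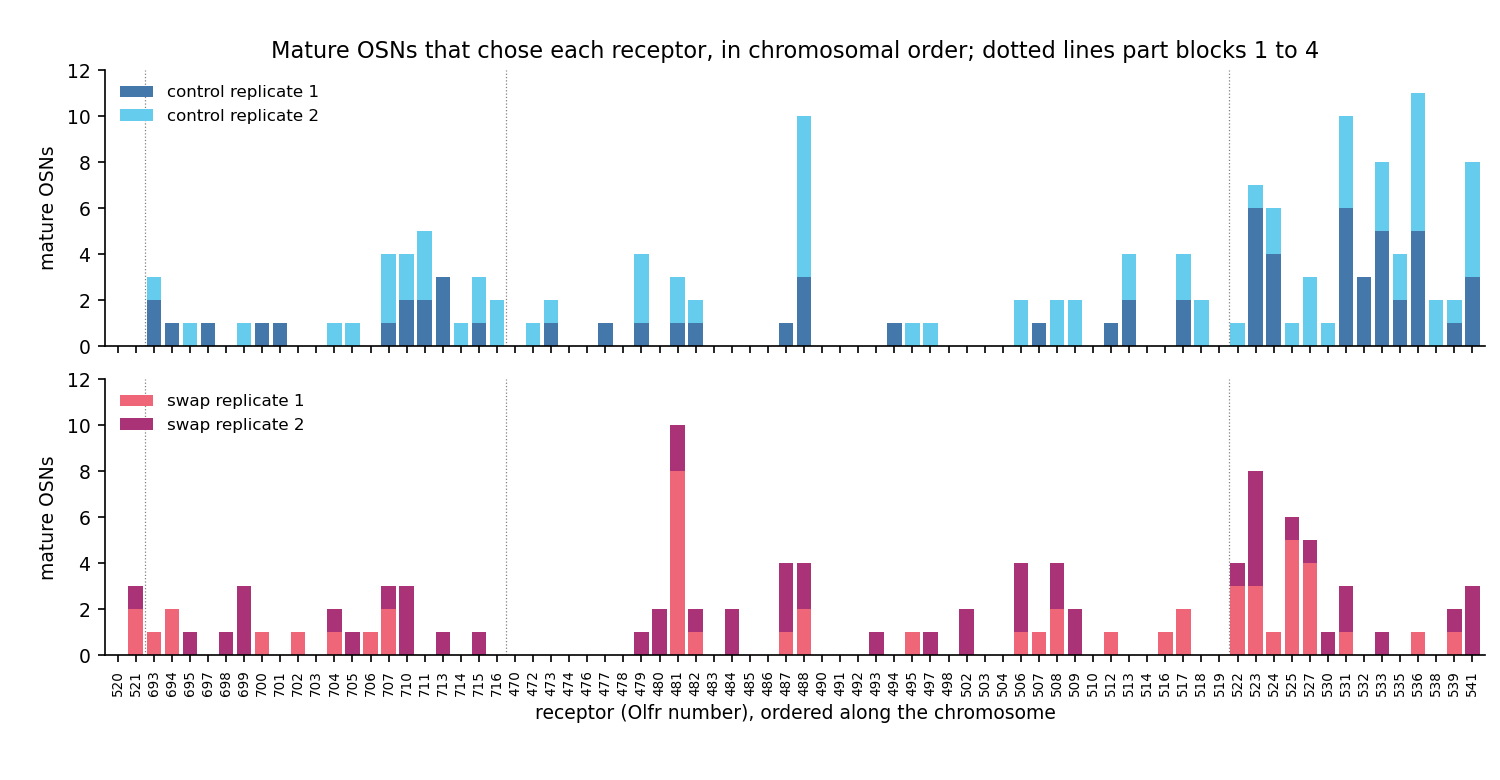
Number of mature OSNs (vertical axis) that chose each of the 76 ORs, which are ordered along chromosome 7 on the horizontal axis, with bars stacked by control library above and by swap library below. *Olfr536* reaches 11 control cells and 1 swap cell, and *Olfr481* 3 control cells and 10 swap cells.

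Shares of 9 ORs were higher in both swap libraries than in both controls (*Olfr481*, *Olfr482*, *Olfr487*, *Olfr508*, *Olfr521*, *Olfr522*, *Olfr525*, *Olfr539* and *Olfr704*), and those of 9 were lower (*Olfr473*, *Olfr488*, *Olfr513*, *Olfr524*, *Olfr531*, *Olfr533*, *Olfr535*, *Olfr536* and *Olfr711*). Each is 15.5% of the 58 chosen. Over all 858 ORs chosen in these libraries 15.7% were higher and 17.9% were lower, so the counts are near the background and are no result about these ORs. Of the 76, 4 were chosen in both controls and in neither swap library. These were *Olfr711*, *Olfr513* and *Olfr535*, by 2 and 3, 2 and 2, and 2 and 2 cells, and *Olfr473*, by 2 cells in all. The reverse held for 1, *Olfr521*, with 3 swap cells. How many of all ORs showed either pattern was not counted, so these too are no result about these ORs. A test of cells per OR, edgeR's quasi-likelihood test, kept only *Olfr1361* after the filter on low counts, so that none of the 76 could be tested as planned. Without the filter, added after seeing the data, 0 of 858 ORs (0%) were called (adjusted p under 0.05, with the log2 difference larger than 0.58 either way), 46 had an unadjusted p below 0.05 and DESeq2 called 0. The smallest edgeR p-value of the 58 was 0.0513, adjusted 0.680, for *Olfr481*.

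Receptor mRNA summed over all mature OSNs gave no call with edgeR and calls with DESeq2. Of 13331 genes 0 (0%) were called by edgeR, with 290 at an unadjusted p below 0.05, while DESeq2 called 184 (1.38%), 62 higher (0.465%) and 122 lower (0.915%) in swap, of which 151 were among the 578 ORs tested. Of the 76 ORs, 36 passed the filter, 6 had an unadjusted p below 0.05 in edgeR and 5 were called by DESeq2, a smaller share than over all tested ORs. *Olfr711* stood at 19.1 and 21.2 CPM in the control libraries and *Olfr535* at 18.9 and 21.8 CPM, and neither had a UMI in a swap library. *Olfr513* stood at 8.41 and 11.1 CPM in control and also had no UMI in either swap library. These UMIs came from 5, 4 and 4 control cells choosing *Olfr711*, *Olfr535* and *Olfr513*, or 0.233%, 0.186% and 0.186% of 2147, while 0 of 1607 swap cells allows a share of up to 0.187%. The control shares thus lay near that limit or below it. The edgeR adjusted p was 0.178, 0.178 and 0.181. *Olfr531* fell in DESeq2 from 35.3 and 27.6 to 7.74 and 6.55 CPM, by 2.22 on the log2 scale. *Olfr521* rose in DESeq2 from no UMI to 5.06 and 1.55 CPM, carried by 3 cells. The edgeR adjusted p of *Olfr531* and *Olfr521* was 0.219 and 0.602. *Olfr711*, *Olfr535* and *Olfr513*, without a swap UMI, and *Olfr521*, without a control UMI, passed the filter only through the group that held their UMIs. That they did not overlap between the groups is thus no support for a difference. *Olfr531* did not overlap between the groups either. For these 5 ORs each difference rests on the 3 to 13 cells that chose the OR. Fewer cells and less mRNA per cell cannot be told apart in the sums alone. Counted by cell, *Olfr531* was chosen by 10 control and 3 swap cells, and its UMIs in mature OSNs were 987 and 168. The part of each was not tested. Without control replicate 1 or control replicate 2, edgeR called genes and ORs that it did not call with both. Such a fit has 1 control library, and an OR can pass the filter through that library alone. *Olfr716* and *Olfr472* had 122 and 138 UMIs in control replicate 2, where 2 and 1 cells chose them. They had 0 and 1 UMIs in the swap libraries. Calls of these fits are thus no result about the 76 ORs.

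Several of these ORs have close copies, which bears on how their UMIs could be assigned. A search over the coding sequences of GENCODE returned no match for *Olfr513*, *Olfr522*, *Olfr523*, *Olfr524*, *Olfr702*, *Olfr710* and *Olfr715*, which the following identities leave out. The search could miss more distant relatives, so no match does not mean that none exist. For the rest, the closest other OR gene was identical at a median of 90.1% of bases (62.6 to 97.1%). Identity was the identical bases of 1 local alignment over the full coding length. An alignment of only part of a gene thus gives a value that is too low. For 60 of the 76 it lay in the same block. For 9 it was identical at 95% or more, where a read could be lost or shared between copies. Among these, the ORs with no UMI were *Olfr503* (97.1%, to *Olfr658*), *Olfr486* (96.2%, to *Olfr487*), *Olfr504* (95.9%, to *Olfr657*) and *Olfr470* (95.9%, to *Olfr469*). Whether their reads were lost to copies was not tested. Of the 311 cells choosing one of these ORs, 19 held at least 3 UMIs of a second OR, which lay in the same block in 10. *Olfr488* and *Olfr487* were found together in 4 cells, with 37 and 36, 25 and 20, 44 and 8, and 38 and 33 UMIs, in both control libraries and swap replicate 1. Their coding sequences are identical at 88.04% of bases. The other same-block pairs held 3 to 5 UMIs of the second OR. Nearly equal amounts of both ORs were thus found for this pair only among same-block pairs, in 3 of its 4 cells. Whether these cells transcribed both genes or reads were shared between copies was not tested.

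The zonal markers divided these ORs by block, which the choice of genes did not use. A dorsoventral score was the mean standardized log expression of 5 ventral markers (*Nfia*, *Nfib*, *Nfix*, *Ncam2*, *Nrp2*), from which that of 4 dorsal ones (*Acsm4*, *Nqo1*, *Robo2*, *Sema3f*) was subtracted, so that higher is more ventral. Cells choosing *Olfr470*–*Olfr519* had mean scores of −0.50 and −0.75 in the control and −0.99 and −0.31 in the swap libraries. Cells choosing *Olfr522*–*Olfr541* scored 0.71 and 1.08 in control and 0.62 and 0.29 in swap libraries, and those choosing *Olfr693*–*Olfr716* scored 0.41 and 0.69, and 0.36 and 0.56. The *Olfr470*–*Olfr519* block was thus the most dorsal of these 3 in every swap and control library, and the other 2 overlapped. Class I cells, which are dorsal, scored −1.60 to −1.34. The 3 cells of *Olfr521* scored −1.46 on average.

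**Figure D3:**
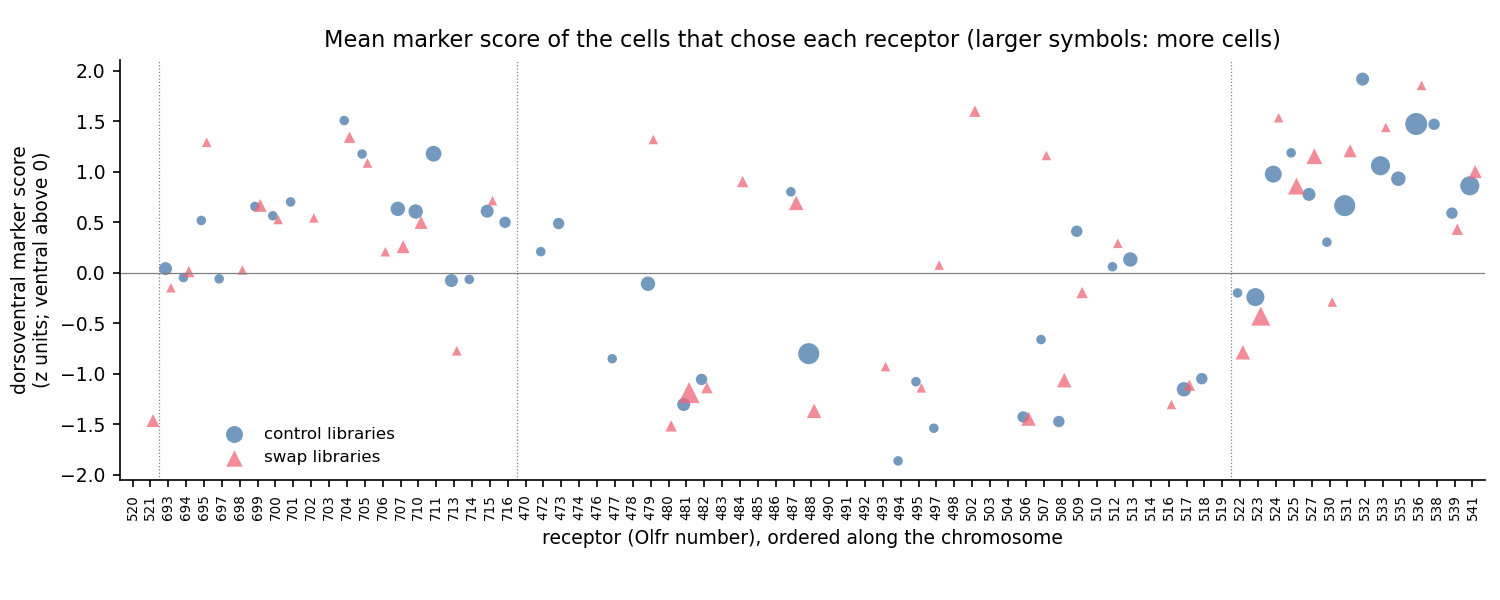
Mean dorsoventral score (vertical axis, z units, ventral above 0) of the cells that chose each OR, ordered along chromosome 7, with circles for control and triangles for swap libraries and larger symbols for more cells. The most often chosen ORs of the *Olfr470*–*Olfr519* block, such as *Olfr481* (−1.22) and *Olfr488* (−0.96), lie below 0, and those of the *Olfr522*–*Olfr541* block lie above 0 except for *Olfr522* and *Olfr523* (−0.34).

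Families within a block were not alike. In the *Olfr470*–*Olfr519* block, the 66 swap and control cells of MOR204 scored −0.75 ± 1.03 (SD over cells) and the 11 of MOR268 scored −0.90 ± 0.57, and 47 and 10 of these cells held *Nqo1*. The 9 cells of MOR267 (*Olfr479* and *Olfr509*) scored 0.14 and the 4 of MOR195 (*Olfr513*) 0.13. In the *Olfr522*–*Olfr541* block MOR251 scored 0.98 (31 cells), MOR252 1.22 (23 cells) and MOR253 0.88 (21 cells), whereas the 15 *Olfr523* cells (MOR104) scored −0.34. MOR103 of this block scored 0.34 ± 1.08 (12 cells), with its 5 *Olfr522* cells at −0.67 and its 7 *Olfr524* cells at 1.06. In the *Olfr693*–*Olfr716* block MOR260 scored 0.54 (21 cells), MOR283 0.53 (24 cells) and MOR263 −0.22 (5 cells). The score thus differed between families of a block, and *Olfr522* and *Olfr523*, which are neighbours at one end of their block, both scored below 0. All these means pool control and swap cells. *Olfr522* had 1 control and 4 swap cells, and *Olfr523* had 7 and 8. The part of genotype in these scores was not tested.

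Among ORs with at least 5 swap and control cells, the most dorsal were *Olfr506* (−1.44 ± 0.58, SD over 6 cells), *Olfr481* (−1.22 ± 0.57, 13 cells) and *Olfr508* (−1.20 ± 0.64, 6 cells). The most ventral were *Olfr536* (1.496 ± 0.55, 12 cells), *Olfr711* (1.18 ± 0.47, 5 cells) and *Olfr533* (1.10 ± 0.39, 9 cells). These 6 were chosen by the score itself, so the gap between them is a description. Their means pool control and swap cells in unequal numbers. *Olfr506*, *Olfr481* and *Olfr508* had 2, 3 and 2 control and 4, 10 and 4 swap cells. *Olfr536*, *Olfr711* and *Olfr533* had 11, 5 and 8 control and 1, 0 and 1 swap cells. The part of genotype in this order was not tested. *Olfr487* did not follow its MOR204 neighbours. Its 5 swap and control cells scored 0.71 ± 0.36, against −0.96 ± 1.02 in the 14 cells of *Olfr488*, the OR with which it was found together. Over the cells of all 6 libraries, *Nqo1* stood at 13.9 CPM in cells choosing *Olfr487* and at 1597 CPM in those choosing *Olfr488*.

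Over all 76 ORs the score was 0.35 and 0.32 in control and −0.17 and 0.05 in swap libraries, and did not overlap. Other class II cells went from 0.20 and 0.23 to −0.03 and −0.06, while class I cells went from −1.60 and −1.53 to −1.39 and −1.34. The share of cells in each block differed between these libraries as given above, and its part in the difference was not tested. With the score reduced to *Nrp2* minus the mean of *Nqo1* and *Acsm4*, the values of the 76 ORs were 0.37 and 0.22 against −0.04 and 0.40 and overlapped.

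To see which genes separate cells of the dorsal-scoring from the ventral-scoring block, cells choosing *Olfr522*–*Olfr541* were compared with cells choosing *Olfr470*–*Olfr519*, with library as a block and OR genes left out. This comparison was added after the values had been seen. Of 5602 genes edgeR called 91 (1.62%), 59 higher (1.05%) and 32 lower (0.571%) in *Olfr522*–*Olfr541* cells. *Cidea*, a lipid droplet protein gene, rose by 1.86 ± 0.15 on the log2 scale (SE, adjusted p = 5.34e-07), from 58.7–202 to 339–641 CPM after TMM scaling. *Pdlim1*, which encodes a cytoskeletal adaptor, rose by 4.12 ± 0.37 from 4.50–6.53 to 55.6–166 CPM, and its 6 UMIs in 5 of 90 cells of the dorsal block contrasted with 166 UMIs in 47 of 102 cells. *Adam28* rose by 1.77, *Ifi27* by 2.65, *Rps4l* by 2.11, *Mslnl* by 1.49, the phosphodiesterase *Pde4d* by 2.31 and the tubulin gene *Tuba4a* by 1.45. For *Cidea*, *Pdlim1*, *Adam28* and *Ifi27* the lowest library of the ventral-scoring block lay above the highest of the other. *Apoe*, *Dcn* and *Cpm* were also called, but they were too low to be tested once cells with markers of another type were left out, and a single *Olfr522* cell of swap replicate 1 held 612 of the 747 *Apoe* UMIs.

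Lower in *Olfr522*–*Olfr541* cells were *Nqo1* (log2 difference −3.38), *Acsm4* (−3.07), the cytokine signalling suppressor *Socs2* (−1.73), the neuropeptide gene *Cartpt* (−1.31), the cell cycle inhibitor *Cdkn1a* (−1.36) and the actin-binding *Tmsb4x* (−0.64). *Nqo1* stood at 949 to 1164 CPM in *Olfr470*–*Olfr519* cells and at 27.0 to 414 CPM in *Olfr522*–*Olfr541* cells before TMM scaling, with no overlap. The upper end of the latter was swap replicate 2, and of the 143 *Nqo1* UMIs of this block 80 came from 3 cells, the highest of which had chosen *Olfr523*. *Avp* and *Fxyd2* were called as well, but nearly all their UMIs came from *Olfr513* cells described below.

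The score that prompted this contrast was built from several of the listed markers, so their calls restate it and are given as a description. Of 4 tested dorsal markers 3 were lower in *Olfr522*–*Olfr541* cells (*Nqo1*, *Acsm4* and the axon guidance receptor *Robo2*, which fell by 1.47), and of 8 ventral markers 5 were higher (*Cidea*, *Nfib* by 1.67, *Ncam2* by 1.45, *Nfix* by 1.30 and *Nrp2* by 0.90) and 1 lower (*Avp*). Of 10 axon targeting genes, *Nrp1* rose by 1.27 and *Efna5*, an ephrin, fell by 0.81, and 8 did not pass. Of 12 odour transduction genes *Ano2*, the chloride channel of the cilia, rose by 0.79 and 11 did not pass, and of 12 OR choice and trafficking genes none did. The medians were −2.27 for dorsal and 1.44 for ventral markers beside 0.00 over all 5602 genes. Without the cells marked by another cell type 85 of 5132 genes (1.66%) were called, 42 higher (0.818%) and 43 lower (0.838%), and the dorsal marker *Cd55* was then called higher in *Olfr522*–*Olfr541* cells, by 1.98 on the log2 scale. Without control replicate 2 the count was 21, and with DESeq2 it was 18.

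**Figure D4:**
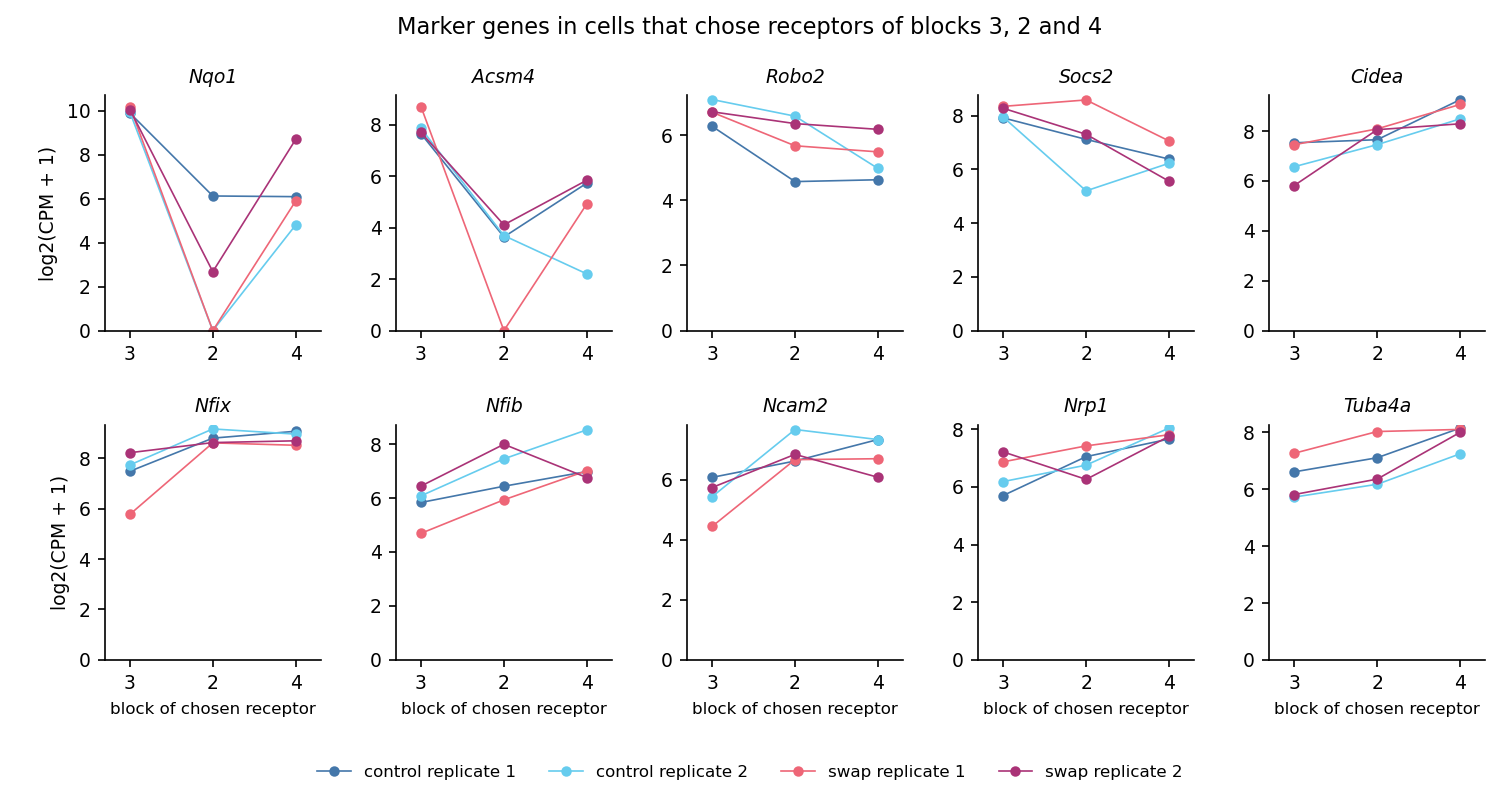
Level of 10 genes as log2(CPM + 1) (vertical axes, before TMM scaling) in cells choosing ORs of block 3 (*Olfr470*–*Olfr519*), block 2 (*Olfr693*–*Olfr716*) and block 4 (*Olfr522*–*Olfr541*), with lines joining the points of 1 library. *Nqo1* is highest in block 3 (949 to 1164 CPM) and falls to 0 to 68.6 CPM in block 2, and *Cidea* is highest in block 4 (312 to 611 CPM).

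The *Olfr693*–*Olfr716* block held fewer cells (55) than the *Olfr470*–*Olfr519* and *Olfr522*–*Olfr541* blocks (90 and 102), so counts of calls cannot be compared between these contrasts. Against *Olfr470*–*Olfr519* cells 5 of 4556 genes (0.11%) were called, 1 higher (0.0219%) and 4 lower (0.0878%), with *Mslnl* higher by 1.30 on the log2 scale and *Nqo1* (−5.79), *Acsm4* (−4.37), *Cartpt* (−1.26) and *Fxyd2* lower. *Nqo1* stood at 74.4, 0, 0 and 6.26 CPM in the 4 libraries against 1054 to 1288 CPM. In the gg8-tTA and tetOP2 libraries, which did not enter the fit, *Nqo1* stood higher in this block, at 342.5 and 715 CPM before TMM scaling, beside 1385 and 532 CPM in *Olfr470*–*Olfr519* cells. Both values of this block lay above its 0 to 68.6 CPM in the swap and control libraries, before TMM scaling. *Nqo1* was held by 5 of its 9 cells in gg8-tTA and by 3 of its 7 cells in tetOP2. It was lower than in *Olfr470*–*Olfr519* cells in gg8-tTA but not in tetOP2. Without swap replicate 2 the count was 27, and without the cells marked by another type it was 18, in which *Ncam2*, *Nfib* and *Nfix* were higher. Against *Olfr693*–*Olfr716* cells, *Olfr522*–*Olfr541* cells differed in 1 of 4672 genes (0.0214%), *Apoe*, which was too low to be tested without the marked cells. Leaving those out gave 9 calls, among them the ventral markers *Cidea* and *Rprm*, the dorsal markers *Cd55* and *Nqo1*, and *Nrp1* and *Tuba4a*, all higher. Without swap replicate 2 the count was 91 and without control replicate 2 or swap replicate 1 it was 0. *Cidea* stood at 174 to 271 CPM in *Olfr693*–*Olfr716*, 312 to 611 CPM in *Olfr522*–*Olfr541* and 55.4 to 184 CPM in *Olfr470*–*Olfr519* cells before TMM scaling, so the first and last of these overlapped. Between the number ranges as such, 3 of 6481 genes (0.0463%) were called, all lower in *Olfr693*–*Olfr716* cells, namely *Nqo1* (−4.80), *Acsm4* (−3.49) and *S100a8*. A single *Olfr481* cell of swap replicate 1 held 2295 of the 2353 *S100a8* UMIs. Without control replicate 2 this count was 0, without swap replicate 2 it was 66, and without control replicate 1 or swap replicate 1 it was 1.

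Compared with cells choosing other class II ORs, cells choosing the 76 ORs had lower *Tshz1* and *Klkb1* and higher *Tuba4a* and *Cidea*. Of 11672 non-OR genes edgeR called 48 (0.411%) with library as a block, 20 higher (0.171%) and 28 lower (0.24%). *Tshz1*, which encodes a zinc finger homeodomain factor, stood at 160 and 245 CPM in other class II cells of the control libraries and at 71.8 and 103 CPM in cells of the 76 ORs, and in the swap libraries at 215 and 398 against 86.7 and 115 CPM. *Tshz1* was lower in 4 of 4 libraries, by 1.39 ± 0.10 on the log2 scale (SE, adjusted p = 6.27e-06). It was detected in 146 of 250 cells of the 76 ORs and in 1868 of 3087 other class II cells. These shares are similar, so the difference lay mainly in the UMIs per cell that held it. *Klkb1*, which encodes plasma kallikrein, fell by 2.83 ± 0.39 on the log2 scale, from 9.94–17.6 to 0.82–2.87 CPM. The sums over cells of the 76 ORs held 634949 to 1212316 UMIs per library, so the lower level of *Klkb1* is only a few UMIs. *Cd36*, a fatty acid receptor of a subset of OSNs, fell by 1.86, from 37.3–128 to 0–41.0 CPM, and these ranges overlap. *Olig1* fell by 0.81.

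Higher were *Tuba4a*, at 106, 56.9, 102 and 63.1 CPM in other class II cells and 219, 101, 219 and 119 CPM in cells of the 76 ORs (control 1, control 2, swap 1, swap 2). This was higher in 4 of 4 libraries, by 0.98 ± 0.08. *Cidea* rose by 0.79, the axon guidance receptor *Nrp1* by 0.77, the cell cycle arrest gene *Rprm* by 0.94, the microtubule kinase *Dclk1* by 1.01, and the cAMP phosphodiesterases *Pde7b* and *Pde4d* by 0.95 and 1.10. The *Olfr522*–*Olfr541* block held most of these UMIs, with 688 of 981 for *Cidea*, 342 of 549 for *Nrp1*, 185 of 268 for *Rprm* and 340 of 519 for *Tuba4a*, from 102 of the 250 cells. In *Olfr470*–*Olfr519* cells *Cidea* stood at 55.4 to 184 CPM before TMM scaling, which overlapped with other class II cells (111 to 286 CPM). *S100a5*, an activity-dependent calcium-binding protein gene of OSNs, rose by 0.61, from 7959–14350 to 14476–21015 CPM, and by 0.52, below the threshold of 0.58, without the cells marked by another type. Of 8 ventral markers *Cidea* and *Rprm* rose and none fell, of 10 axon targeting genes *Nrp1* rose, and of 5 dorsal markers, 13 transduction genes and 12 OR choice and trafficking genes none passed. The medians were −0.27 for dorsal and 0.07 for ventral markers beside 0.01 over all genes. *Chil4*, *Muc2*, *Cyp2g1*, *Sec14l2*, *Cyp2f2* and *Ugdh* were lower but not called without the marked cells, 3 of the 6 with a reversed sign. *Muc2* and *Cyp2g1* belong to the sustentacular list. Without those cells 40 of 10723 genes were called (0.373%), 24 higher (0.224%) and 16 lower (0.149%). Leaving out control replicate 1 gave 31 calls, and leaving out control replicate 2 or swap replicate 2 gave 75 or 78.

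**Figure D5:**
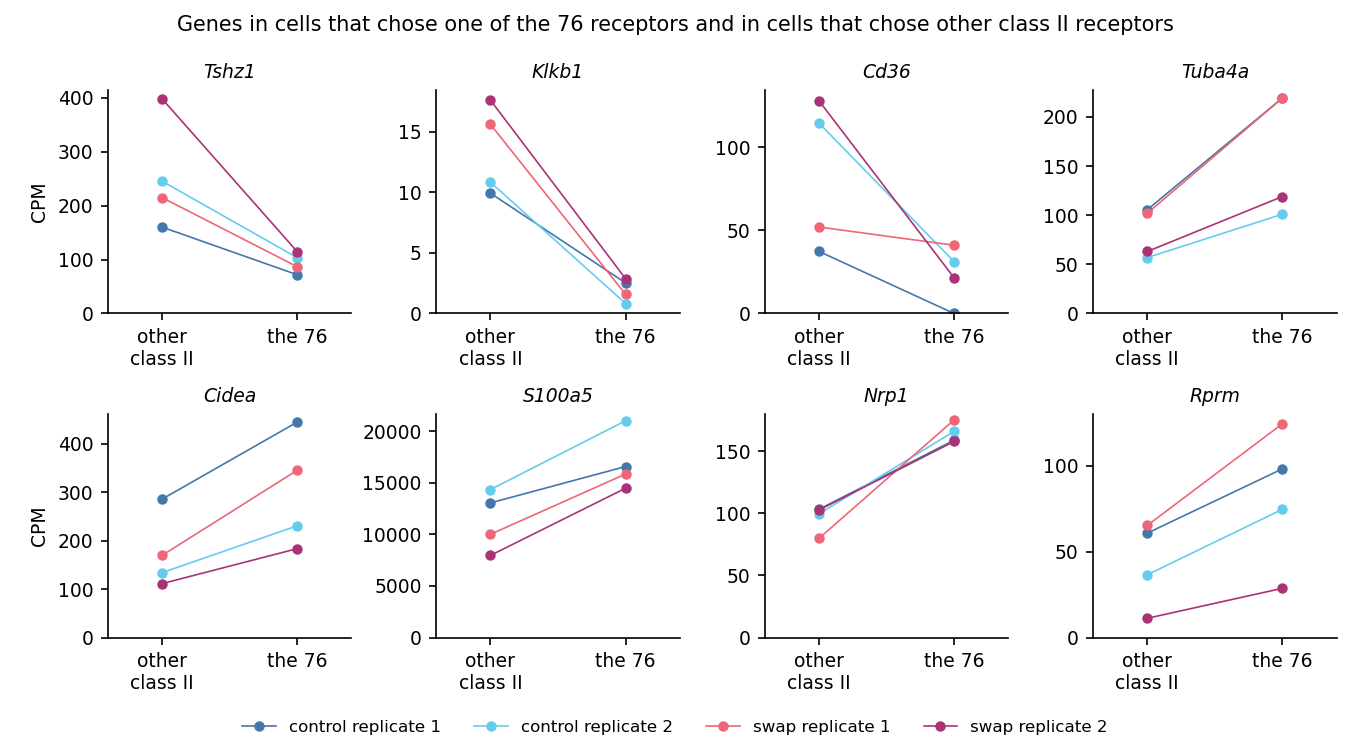
CPM after TMM scaling (linear axes from 0) of 8 genes in cells choosing other class II ORs and in cells choosing the 76 ORs, with lines joining the points of 1 library. *Tshz1* is lower (71.8 to 115 against 160 to 398 CPM) and *Tuba4a* higher in cells of the 76 ORs in each library.

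Within cells choosing the 76 ORs, swap against control changed few genes at this depth. Of 7605 non-OR genes edgeR called 3 (0.0394%), all lower in swap. *Cbx1* fell by 4.42 ± 0.52 (adjusted p = 0.0177), which is the exchanged gene itself. *Fxyd2*, a regulator of the sodium pump, fell by 5.07 ± 0.53 from 114 and 101 to 1.61 and 4.36 CPM, and *Avp*, which encodes vasopressin, from 498 and 300 to 0 and 11.6 CPM (adjusted p = 0.0163 and 0.0177). Leaving out control replicate 1, control replicate 2, swap replicate 1 or swap replicate 2 gave 68, 101, 10 or 81 calls. Apart from *Avp*, which is in the ventral list, the dorsal and ventral markers did not pass, among them *Nqo1* at 287 and 347 CPM in control and 528 and 682 CPM in swap libraries and *Ncam2* at 130 and 133 against 69.4 and 74.2 CPM (unadjusted p = 0.0114 and 0.0151, adjusted p = 1.00 in edgeR). The medians were 0.94 over the 4 dorsal and −0.59 over the 8 ventral markers tested, beside 0.01 over all genes. Not every listed marker moved this way. Before TMM scaling, the ventral marker *Nrp2* in *Olfr522*–*Olfr541* cells stood at 84.5 to 102 CPM in control and 117 to 184 CPM in swap libraries. In *Olfr470*–*Olfr519* and in *Olfr693*–*Olfr716* cells its control and swap ranges overlapped.

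The difference between swap and control in the contrast with other class II cells was also tested itself. Of 11672 genes 60 (0.514%) passed, 14 higher (0.12%) and 46 lower (0.394%), and without the cells marked by another type 4 of 10723 (0.0373%) passed, 1 higher (0.00933%) and 3 lower (0.028%). The 3 lower were *Avp*, *Fxyd2* and *Ppa1*.

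The *Avp* and *Fxyd2* UMIs came almost wholly from *Olfr513* cells. Of the 4 control cells choosing *Olfr513*, 3 held 394, 214 and 137 *Avp* UMIs and 82, 83 and 34 *Fxyd2* UMIs, and the remaining one held neither. They were found in both control libraries and held 98.03% of the *Avp* UMIs of all 250 cells. The same 3 cells held 770, 425 and 375 UMIs of *Ppa1*, a pyrophosphatase, against 75 in the fourth. No swap cell chose *Olfr513*, and the *Olfr513* cell of the gg8-tTA library held no *Avp* or *Fxyd2* UMI and 6 of *Ppa1*. Cells with at least 10 *Avp* UMIs were also found in the swap libraries, 7 and 3 of them, and had chosen ORs outside the 76, such as *Olfr613* and *Olfr1105*. In control libraries 6 and 20 cells held at least 10 *Avp* UMIs. In cells choosing other class II ORs *Avp* summed to 76.5 and 10.8 CPM in the swap libraries against 187 and 94.0 CPM in the controls. A single *Olfr1346* cell of control replicate 1 held 1608 of the 3817 *Avp* UMIs of these cells. The value of that library thus rests largely on 1 cell, and a fall across other class II cells is not shown. Among the 76 ORs, *Olfr693*–*Olfr716* cells held 0 and 4 *Avp* UMIs in control and 0 and 8 in swap libraries. *Olfr522*–*Olfr541* cells held 3 and 0 in control and 0 and 0 in swap libraries. The part of the missing *Olfr513* cells in the difference within cells of the 76 ORs was not tested.

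In the tetOP2 library 382 of 650 choosing cells (58.8%) chose *Olfr17*, against 1 of 598 in the gg8-tTA library. The 76 ORs were chosen by 21 cells (3.23%, exact 95% interval 2.01 to 4.90%) in tetOP2 and by 40 cells (6.69%, 4.82 to 8.998%) in gg8-tTA. With the *Olfr17* cells left out of the denominator they made up 7.84% (4.92 to 11.7%) and 6.70% (4.83 to 9.01%). With 1 library per group there is no test. The 3 larger blocks held 7 cells each in tetOP2, or 2.61% each without *Olfr17* cells, beside 1.51, 2.51 and 2.68% in gg8-tTA for *Olfr693*–*Olfr716*, *Olfr470*–*Olfr519* and *Olfr522*–*Olfr541*. *Olfr531* was chosen by 3 cells in each library, *Olfr536* by 5 in gg8-tTA and 2 in tetOP2, and *Olfr533* by 3 and 0. The block scores in gg8-tTA were −0.90, 0.03 and 0.57 for *Olfr470*–*Olfr519*, *Olfr693*–*Olfr716* and *Olfr522*–*Olfr541*, and in tetOP2 they were −0.15, −0.11 and 0.44.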

How the data were processed

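The authors deposited UMI counts per gene and barcode for each library, made from 10x reads with Cell Ranger with introns included (version 3.1.0 in the headers of 4 files; build mm10 per the labels), without normalization. Barcodes under 1000 UMIs or 500 genes were dropped, and predicted doublets (0.8% per 1000 cells, 50 nearest neighbours) were removed. UMIs of cells were summed per library and tested with edgeR 4.0.16 (quasi-likelihood, TMM, filterByExpr, Benjamini-Hochberg over all genes tested; a call needs an adjusted p under 0.05 and a log2 difference larger than 0.58 either way), with DESeq2 1.42.0 as an alternative and the fits were tested on simulated data. Shares carry exact Clopper-Pearson 95% intervals, and a count of 0 was bounded by 3 counts, for counting error only. The SE given with an edgeR log2 difference was derived, as its absolute value over the square root of the quasi-likelihood F statistic. Class I was a MOR number up to 42 on chromosome 7. Coordinates and coding sequences came from GENCODE vM21, and identities from BLAST 2.17.0. The named genes were the 25 ORs with the most swap and control cells, every OR called in a test, the 3 most dorsal and ventral ORs with at least 5 cells, up to 8 called genes per direction and the marker lists. *Cd36* and *Olig1* were named outside this rule. ORs and lists were chosen with earlier results of these data known. The block contrasts, the unfiltered test and the removal of marked cells were added after seeing the data. The driver of the Cre allele is not reported here.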

Additional observations from a re-analysis of the deposited data

Results flagged for a closer look

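The difference between swap and control in the contrast of cells choosing the 76 ORs with cells choosing other class II ORs was tested as an interaction in edgeR, with library as a block, and 60 of 11672 genes passed (0.514%), 14 higher (0.12%) and 46 lower (0.394%). A positive log2 value means that the contrast was higher in swap than in control libraries. The 8 positive values named were 9.41 for *Camp*, 7.34 for *Ngp*, 6.77 for *Chil3*, 5.38 for *BC100530*, 5.003 for *S100a9*, 4.77 for *S100a8*, 3.83 for *Hmox1* and 2.59 for *Ctsz*. One *Olfr481* cell of swap replicate 1 held 1075 of the 1079 *Camp* UMIs and 756 of the 763 *Ngp* UMIs of the 250 cells. Negative values were −3.19 for *Gstm5*, −2.90 for *Sult1c1*, −1.30 for *Cbr2*, −2.03 for *Pon1*, −3.98 for *Wfdc2* and −2.93 for *Sftpd*, and −4.27 for *Avp* and −4.996 for *Fxyd2*, which among cells of the 76 ORs were highest in *Olfr513* cells. *Cbr2* stood at 28.1 and 1085 CPM in other class II cells of the controls and at 29.0 and 855 CPM in cells of the 76 ORs, and in the swap libraries at 790 and 865 against 273 and 272 CPM.

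Without cells that held at least 10 UMIs of another cell type's markers, 4 of 10723 genes (0.0373%) passed, namely *Avp*, *Fxyd2*, *Ppa1* (−1.24) and *4932412D23Rik* (2.58). Among cells of the 76 ORs, the first 3 of these were highest in *Olfr513* cells of the control libraries.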

How the results depend on the processing

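Counts of called genes are given in the order of the text. For OR mRNA, DESeq2 gave 184 calls, and leaving out 1 library gave 0 to 615. For cells per OR, the filtered test called 1 OR and gave 0 with TMM, without the filter or with the replicate number as a block, 2 with at least 3 *Omp* UMIs, and 0 to 1 with 1 library left out. The unfiltered test gave 1 with TMM or with doublets kept, 3 with at least 3 *Omp* UMIs, and 0 to 2 with 1 library left out. For the 76 ORs against other class II ORs, 159 genes were called with 10 UMIs in the top OR, 20 with DESeq2, 75 with all 6 libraries, 78 with at least 3 *Omp* UMIs, 209 without a filter, 189 with doublets kept, 74 in the control libraries alone and 31 to 78 with 1 library left out. For swap against control in these cells, 75 were called without a filter, 0 with the replicate block, and 10 to 101 with 1 library left out. For the number ranges the counts were 5, 1, 5, 37, 7 and 42 with 10 UMIs, all 6 libraries, marked cells left out, no filter, doublets kept and control libraries alone, and 0 to 66 with 1 library left out. For the interaction they were 4 with marked cells left out and 95 without a filter. For *Olfr522*–*Olfr541* against *Olfr470*–*Olfr519* they were 18 with DESeq2, 246 without a filter, 59 with doublets kept and 21 to 95 with 1 library left out. For *Olfr693*–*Olfr716* against *Olfr470*–*Olfr519* they were 12 with 10 UMIs, 9 with all 6 libraries, 18 with marked cells left out, 49 without a filter, 42 in control libraries alone and 4 to 27 with 1 library left out. For *Olfr522*–*Olfr541* against *Olfr693*–*Olfr716* they were 0 with 1 UMI, DESeq2 or all 6 libraries, 9 with marked cells left out, 69 without a filter, 4 with doublets kept, 17 in control libraries alone and 0 to 91 with 1 library left out. The cause of these changes was not tested.

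The swap minus control share of the 76 ORs ranged from −1.01 to 0.871 percentage points with 1 library left out, and the score difference from −0.500 to −0.285, or −0.11 with the short score. The tetOP2 minus gg8-tTA share was 1.14 points without *Olfr17* cells. With marked cells left out the sign reversed for *Chil4* (0.87), *Muc2* (0.55) and *Cyp2f2* (0.0695) in the contrast with other class II ORs, and in the interaction for *Ngp* (−0.84), *Hmox1* (−1.23), *Gstm5* (0.56), *Sult1c1* (1.09), *Cbr2* (0.63) and *Pon1* (0.27).

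Swap and control libraries share the replicate numbers 1 and 2. Deviations of same-numbered libraries correlated at r = 0.202 over 13331 genes in mature OSNs and 0.273 over 7605 genes in cells of the 76 ORs, and with 2 pairs the numbers were not taken as a pairing. The replicate block gave 0 calls in each test of swap against control in which it was fitted. The libraries held 21 to 79 cells of these ORs.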
